A study of Mus musculus with 4 samples.

Results

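The genes described here are 10 members of the Notch signalling pathway in mouse mammary cells: the receptor genes Notch1, Notch2, Notch3 and Notch4, the ligand genes Jag1, Jag2 and Dll1, and the target genes Hes1, Hey1 and Heyl. They were picked by name, and all 10 were found by matching the 54393 gene identifiers of the count table to GENCODE M21 symbols. Messenger RNA was measured by RNA sequencing in 4 libraries. In the 2 cKO libraries the gene for ΔNp63, the short p63 isoform found in basal cells of epithelia, was conditionally deleted (Dnp63 cKO), with glands taken 10 days or 5 weeks after tamoxifen. The 2 WT libraries were taken at the same time points. Tamoxifen at 1.5 mg/ml was given at puberty, at 4 weeks of age. The labels attach that treatment, and the alleles iK14-Cre and DNp63 f/f, to all libraries alike, so which of these alleles the WT mice carried is not separately given. The Cre is driven from the keratin 14 promoter and therefore acts in basal cells and their descendants. A sort removed cells bearing CD45, CD31 or Ter119, and each library was made from 100000 of those left. The labels do not say that the libraries came from separate animals, so p-values measure the spread between these libraries only. Each genotype had 1 library at each time point. That spread is therefore what the genotype and time terms leave over, moderated across genes, and not a spread between replicates of a time point. Gland ages of 5 and 35 weeks also appear in the labels, and because the older age cannot follow from the stated times, age was not used.

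Notch receptors are single-pass membrane proteins that are switched on by ligands of the Jagged and Delta-like families on a neighbouring cell. Ligand binding exposes the receptor to cleavage by ADAM proteases and then by γ-secretase, and the freed intracellular part enters the nucleus, binds RBPJ and turns on target genes, among them the Hes and Hey repressors. In the mammary gland, Notch signalling is known for directing luminal fate, and basal cells are a source of ligands.

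Total counts ran from 31714181 to 79122250 per library, and the 10 genes held between 26023 and 77074 counts of each library. Trp63, the targeted gene, stood at 12.8 and 25.5 CPM (counts relative to TMM-scaled library size) in cKO and at 46.8 and 161 CPM in WT, in each case at 10 days and 5 weeks. Of the 8 basal epithelial markers, a list that includes Trp63 itself, 7 had lower values in cKO than WT at both times. Lower at both times were 30.5% of all tested genes. The 8 markers summed to 1240 and 1211 CPM in cKO and 4147 and 16868 CPM in WT. The 5 markers of myoepithelial contraction, another trait of basal cells that smooth muscle shares, summed to 1539 and 1814 CPM in cKO and 2755 and 1621 CPM in WT, with 1 of the 5 lower in cKO at both times and a median log2 fold change of -0.21. Luminal markers (9 genes) summed to 9213 and 7255 CPM in cKO and 7934 and 7342 CPM in WT. Fibroblast markers (6 genes), which the sort does not remove, summed to 24109 and 48955 CPM in cKO and 34785 and 21659 CPM in WT. These sums were above the luminal sum in each library although the tissue is labelled as epithelial. Sums of different marker lists are not set per length and do not give shares of cells. Adipocyte markers (4 genes) stood at 111 CPM in cKO at 10 days and at 1.74 to 2.65 CPM in the other libraries. Leukocyte markers (7 genes) summed to 87.0 and 105 CPM in cKO and 58.0 and 42.5 CPM in WT. Of these, 6 were higher in cKO at both times. Erythroid markers (3 genes) summed to 7.02 and 43.7 CPM in cKO and 15.8 and 18.5 CPM in WT. No marker was at 0 in any library. In such mixed samples, fewer cells of a type and less RNA per cell cannot be told apart.

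The promoter windows of the ligand genes among the 10 are shown because all 3 had lower values in cKO at both time points, as 30.5% of all tested genes did. Of the other tested ligand genes, Dll4 and Dlk1 were higher in cKO at both time points and Dlk2 was lower. RefSeq windows (GRCm38.p6, from 250 bases before to 50 bases after a RefSeq start site) were found for 7 of the 10 genes and not for Hes1, Hey1 and Heyl. They are printed 5′ to 3′ on the minus strand, with CpG dinucleotides in capitals. Jag2 lies at chr12:112929446-112929745, Jag1 at chr2:137116471-137116770 and the first of the 2 Dll1 windows at chr17:15375774-15376073. By GENCODE positions the Jag2, Notch1 and first Dll1 windows lie inside their genes. Their CpG counts and motifs therefore do not describe the sequence before the GENCODE gene start. The second Dll1 window (chr17:15376883-15377182) lies before that start and is not printed.
Jag2: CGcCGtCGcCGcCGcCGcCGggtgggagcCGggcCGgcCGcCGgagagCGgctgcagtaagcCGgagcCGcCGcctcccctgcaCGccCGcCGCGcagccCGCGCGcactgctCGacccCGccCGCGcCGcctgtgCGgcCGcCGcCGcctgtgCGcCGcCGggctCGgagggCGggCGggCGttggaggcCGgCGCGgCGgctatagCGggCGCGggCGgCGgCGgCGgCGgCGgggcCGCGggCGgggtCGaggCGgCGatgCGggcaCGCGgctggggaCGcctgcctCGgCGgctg
Jag1: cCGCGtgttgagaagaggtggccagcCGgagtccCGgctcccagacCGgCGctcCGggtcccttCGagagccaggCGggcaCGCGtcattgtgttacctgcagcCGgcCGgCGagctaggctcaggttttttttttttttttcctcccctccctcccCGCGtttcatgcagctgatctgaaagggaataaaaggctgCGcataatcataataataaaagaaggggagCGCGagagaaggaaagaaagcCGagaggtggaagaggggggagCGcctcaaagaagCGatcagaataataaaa
Dll1: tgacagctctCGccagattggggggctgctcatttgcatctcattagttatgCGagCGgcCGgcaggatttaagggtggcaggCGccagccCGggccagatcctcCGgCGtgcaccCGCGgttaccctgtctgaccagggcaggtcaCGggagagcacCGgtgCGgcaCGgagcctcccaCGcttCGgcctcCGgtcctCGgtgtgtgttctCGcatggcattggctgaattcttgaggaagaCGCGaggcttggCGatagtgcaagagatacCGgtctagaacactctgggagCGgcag
The Jag2 window was 86.0% G and C and held 63 CpG dinucleotides, a number reached by 10 of 32841 windows of the same length. Jag1 had 55.7% G and C with 22 CpG dinucleotides, and this Dll1 window 62.7% with 24, where the median window had 52.7% and 7. The RBPJ core TGGGAA was searched on both strands and was absent from the windows of all 7 genes (25.6% of all windows hold it). The p53-family half-site was also absent from all of them (8.36% of all windows hold it). The N-box CACNAG, a motif of Hes-type repressors that 42.5% of all windows hold, had 3 matches in the Notch1 window, 2 of them overlapping on opposite strands, 2 in Notch3, 1 in Notch2 and 1 in the second Dll1 window. A match describes letters only, and a motif not found is only not in these windows.

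The cKO libraries held less Jag2 and Dll1 than the WT libraries at both time points, with fitted log2 differences of -1.78 and -0.88. The ligand Jag1 (-0.47), the receptors Notch1 (-0.41) and Notch4 (0.56) and the target Heyl (-0.36) had smaller ones. The receptors Notch2 and Notch3 and the targets Hes1 and Hey1 lay between -0.08 and 0.17. With genotype and time point as terms, edgeR's quasi-likelihood test called 0 of the 10 genes at an adjusted p of 0.05, where 0.0581% of the 18917 tested genes were called. All 10 passed the filter on low counts. Trp63, the targeted gene, was not called by that test either, at a log2 fold change of -2.26 and an adjusted p of 0.107. At an unadjusted p under 0.05 stood 2 of the 10, Jag2 and Dll1, both lower in cKO, where 5.8% of all genes did so in that direction and 11.6% in either. DESeq2 called 1 (Jag2), against 2.71% of all genes, and limma-voom 0, against 0.153%. At an unadjusted p under 0.05 both tools also had Jag2 and Dll1, as they had 10.1% and 12.7% of all genes in that order. The median log2 fold change, cKO over WT, was -0.22 over the 10 genes and -0.01 over all tested genes. Lower in cKO at both time points were 4 of the 10 (Notch1, Jag1, Jag2 and Dll1), where 30.5% of all genes were. Notch4 was higher in cKO at both, as 29.7% of all genes were. The other 5 genes had opposite directions at the 2 time points, as 39.8% of all genes did.

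**Figure D1:**
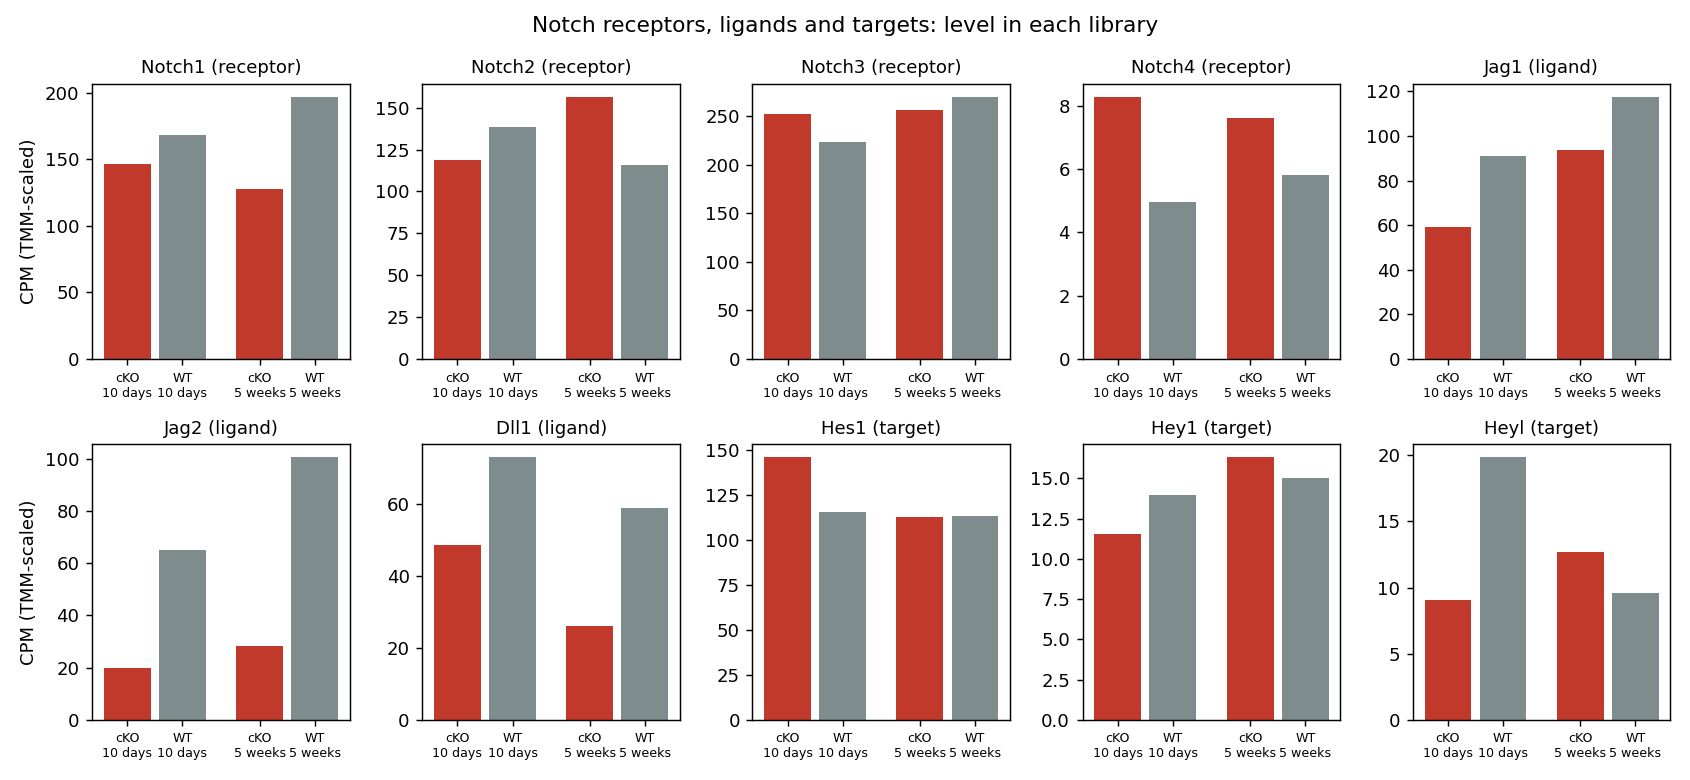
Level of each gene in each library, in TMM-scaled CPM on axes that start at 0, with cKO in red and WT in grey at 10 days and 5 weeks. Jag2 stood at 19.7 and 28.3 CPM in cKO and at 65.0 and 101 CPM in WT, while Hes1 at 5 weeks stood at 113 CPM in both genotypes.

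Among the ligands, Jag2 had the largest difference. Jag2 (ENSMUSG00000002799.6, GRCm38 chromosome 12, 112907819 to 112929776, minus strand) encodes a Jagged ligand made in basal and stratified epithelia. It stood at 19.7 CPM at 10 days and 28.3 CPM at 5 weeks in cKO, from 625 and 962 counts, and at 65.0 and 101 CPM in WT, from 2240 and 7725 counts. Both cKO libraries lay below both WT libraries. Such separation downward was found for 23.3% of all tested genes. Fitted over both time points, Jag2 was 3.42-fold lower in cKO, a log2 fold change of -1.78 with an SE of 0.200. That SE came from 2 libraries per genotype, 1 at each time point. Its p-value ranked 33 among the 18917 genes and its adjusted p in edgeR's quasi-likelihood test was 0.0969, which missed the threshold. DESeq2 gave an adjusted p of 7.21e-07, limma-voom 0.0859, and edgeR without a filter on low counts 2.77e-10. Across these and 8 further alternatives the adjusted p ran from 2.77e-10 to 0.678 and the log2 fold change from -2.09 to -1.44.

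The ratio of cKO to WT for Jag2 was 0.303 at 10 days and 0.282 at 5 weeks. As log2 ratios these were -1.72 (95% counting interval -1.86 to -1.60) and -1.83 (-1.92 to -1.73), and the intervals overlapped. They cover counting error only. Whether the genotype difference was alike at both time points could not be tested with 1 library per genotype and time point. The summed basal markers (Trp63 among them) had ratios of 0.299 and 0.0718. The squamous markers (9 genes, all lower in cKO at both time points) had ratios of 0.189 and 0.0511. The myoepithelial contraction markers had ratios of 0.559 and 1.12. Jag2 thus stood at nearly the ratio of the basal list at 10 days and above it at 5 weeks, and below the contraction list at both. The part of basal, myoepithelial and squamous cell content in the Jag2 result was not tested.

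Dll1 (ENSMUSG00000014773.13, chromosome 17, 15367354 to 15376872, minus strand) encodes a Delta-like ligand that has been used to mark mouse mammary stem cells of the basal layer. In cKO it stood at 48.7 CPM at 10 days and 26.0 CPM at 5 weeks, and in WT at 72.9 and 58.9 CPM. Both cKO values lay below both WT values, as for 23.3% of all tested genes. Fitted over both time points, Dll1 was 1.84-fold lower in cKO, a log2 fold change of -0.88 with an SE of 0.234, an unadjusted p of 0.0108 and an adjusted p of 0.308 in edgeR's quasi-likelihood test. The only alternative that called it was edgeR without a filter (adjusted p = 0.0110), and the others gave adjusted p from 0.135 to 0.903. Without the cKO library at 5 weeks the log2 fold change was -0.46, and without the cKO library at 10 days it was -1.36, in fits without the time term, so that time enters these values. Within time points the log2 ratio was -0.58 (counting interval -0.67 to -0.49) at 10 days and -1.18 (-1.29 to -1.08) at 5 weeks. Whether the difference grew with time could not be tested with 1 library per genotype and time point.

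Jag1 (ENSMUSG00000027276.7, chromosome 2, 137081456 to 137116644, minus strand), the other Jagged ligand gene, stood at 59.4 and 93.8 CPM in cKO and at 91.0 and 118 CPM in WT. The cKO value at 5 weeks lay above the WT value at 10 days, so the genotypes overlapped. The log2 fold change was -0.47 (SE 0.197), with an adjusted p of 0.447. Without a library, its log2 fold change ran from -0.83 (cKO at 5 weeks left out) to -0.16 (cKO at 10 days left out).

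Ratios between ligands within a library do not depend on scaling. Jag2 counts were 0.331 and 0.302 times the Jag1 counts in cKO and 0.715 and 0.855 times in WT, at 10 days and 5 weeks. Dll1 counts were 0.819 and 0.277 times the Jag1 counts in cKO and 0.801 and 0.501 times in WT. The Jag2 to Jag1 ratio thus separated the genotypes at both time points, whereas the Dll1 to Jag1 ratio differed little between them at 10 days.

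Per kilobase of exon, which allows levels of different genes to be set side by side, the 3 ligands summed to 24.6 and 26.3 CPM per kilobase in cKO and to 42.2 and 48.6 in WT. Jag2 made up 11.5% and 15.4% of that ligand sum in cKO and 22.1% and 29.7% in WT. Jag1 made up 41.5% and 61.1% in cKO and 37.0% and 41.6% in WT. Dll1 took the remaining 47.0% and 23.4% in cKO and 40.9% and 28.7% in WT. In both genotypes Dll1 was the leading ligand per length at 10 days, and Jag1 at 5 weeks.

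**Figure D2:**
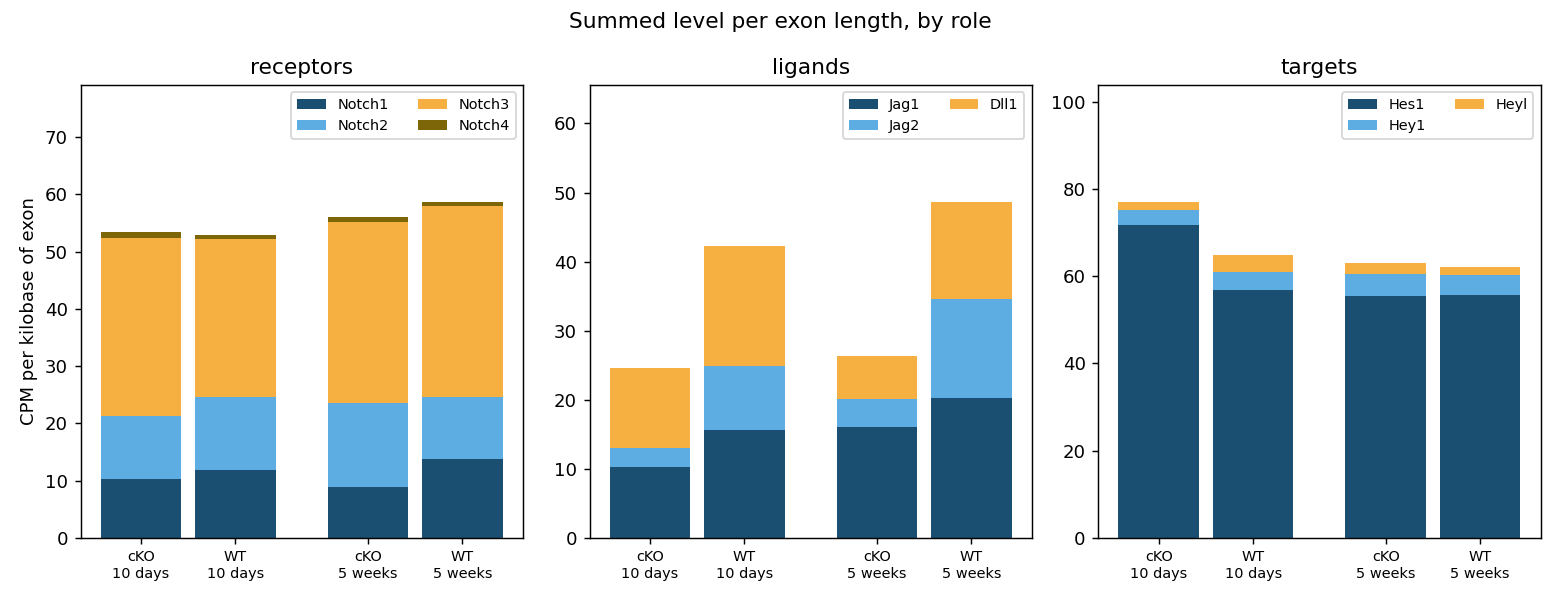
Level per kilobase of exon (CPM per kilobase) of receptors, ligands and targets, stacked by gene for cKO and WT at 10 days and 5 weeks. The ligand stacks reach 24.6 and 26.3 in cKO and 42.2 and 48.6 in WT, whereas the receptor stacks lie between 52.9 and 58.6 in all 4 libraries.

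The summed receptors lay within a narrow range. Their level per kilobase was 53.4 and 56.1 CPM per kilobase in cKO and 52.9 and 58.6 in WT. Notch3 held the largest share of it in every library, 58.2% and 56.5% in cKO and 52.3% and 56.9% in WT.

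Notch1 (ENSMUSG00000026923.15, chromosome 2, 26457903 to 26516663, minus strand), a receptor that promotes luminal fate, stood at 146 and 127 CPM in cKO and at 168 and 197 CPM in WT. Both cKO values lay below both WT values, as for 23.3% of all tested genes. The fitted log2 difference was -0.41 (SE 0.223), at an adjusted p of 0.542 in edgeR's quasi-likelihood test. Its log2 ratio was -0.20 (counting interval -0.25 to -0.14) at 10 days and -0.63 (-0.68 to -0.58) at 5 weeks. All 11 alternatives kept the negative sign and none called it.

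Notch2 (ENSMUSG00000027878.11, chromosome 3, 98013527 to 98150361, plus strand) stood at 119 and 156 CPM in cKO and at 138 and 116 CPM in WT. The order of the genotypes was opposite at the 2 time points, with log2 ratios of -0.22 (counting interval -0.28 to -0.16) and 0.44 (0.39 to 0.49). Over both, the log2 fold change was 0.11 (SE 0.242, adjusted p = 0.900). Relative to Notch1 in the same library, Notch2 counts were 0.810 and 1.23 in cKO and 0.824 and 0.587 in WT, so the ratio was alike between genotypes at 10 days and higher in cKO at 5 weeks.

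Notch3 (ENSMUSG00000038146.8, chromosome 17, 32120820 to 32166852, minus strand), a receptor of luminal progenitors and also of pericytes and vascular smooth muscle, stood at 252 and 256 CPM in cKO and at 223 and 269.8 CPM in WT. The cKO values lay between the WT values. The log2 fold change was 0.05 (SE 0.226, adjusted p = 0.957), the smallest in size of the 10 genes. Pericyte and vascular smooth muscle markers (6 genes, 5 of them higher in cKO at both time points) summed to 519 and 617 CPM in cKO and 351 and 383 CPM in WT. Both cKO sums of that list lay above both WT sums, whereas the Notch3 values overlapped.

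Notch4 (ENSMUSG00000015468.14, chromosome 17, 34564268 to 34588503, plus strand), a receptor of endothelium, had the lowest level per length of the 10 genes. It stood at 8.28 and 7.60 CPM in cKO, from 263 and 258 counts, and at 4.96 and 5.80 CPM in WT, from 171 and 446 counts. Both cKO values lay above both WT values, as for 22.6% of all tested genes, and the log2 fold change was 0.56 (SE 0.322, adjusted p = 0.568). Endothelial markers (7 genes, all higher in cKO at both time points) summed to 148 and 243 CPM in cKO and 107 and 140 CPM in WT. Dll4, the ligand gene of sprouting vessels, stood at 6.99 and 6.80 CPM in cKO and 2.70 and 4.85 CPM in WT. The part of residual endothelial cells in the Notch4 values was not tested.

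**Figure D3:**
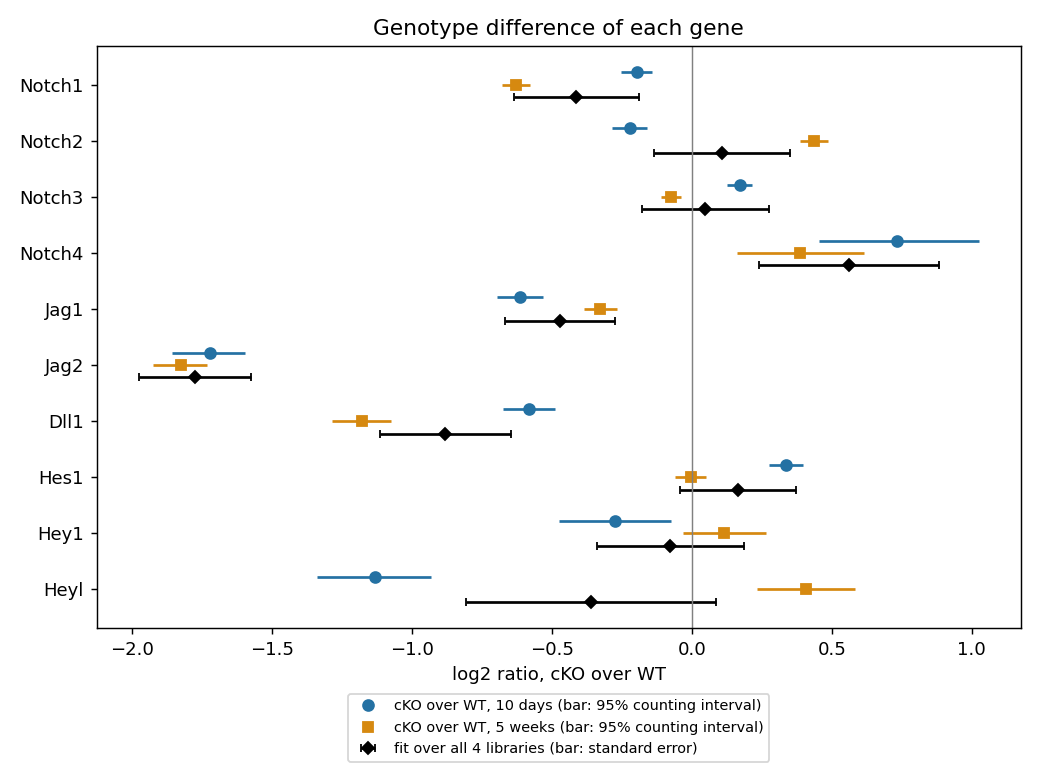
Log2 ratio of cKO over WT for each gene at 10 days and at 5 weeks, with 95% counting intervals, and the fitted log2 fold change over all 4 libraries with its standard error. Jag2 lies near -1.8 in all of them (-1.72, -1.83 and -1.78). For Notch2, Notch3 and Heyl the whole counting intervals of the time points fall on opposite sides of 0.

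None of the 3 targets among the 10 genes was lower in cKO at both time points, where 30.5% of all tested genes were. Of the 4 other targets tested, 1 (Nrarp) was lower in cKO at both time points and 2 were higher at both. Hes1 (ENSMUSG00000022528.8, chromosome 16, 30064384 to 30067796, plus strand), a transcriptional repressor and a widely used readout of Notch activity, stood at 146 and 113 CPM in cKO and at 116 and 113 CPM in WT. The log2 ratio was 0.34 (counting interval 0.28 to 0.40) at 10 days and -0.00 (-0.06 to 0.05) at 5 weeks. The fitted log2 fold change was 0.17 (SE 0.207, adjusted p = 0.808). Hes1 was the most abundant of the 10 genes per length and made up between 87.4% and 93.1% of the summed target level per kilobase.

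Hey1 (ENSMUSG00000040289.8, chromosome 3, 8663359 to 8667256, minus strand), a related repressor, stood at 11.6 and 16.3 CPM in cKO and at 14.0 and 15.0 CPM in WT. The WT values lay between the cKO values, and the log2 fold change was -0.08 (SE 0.263, adjusted p = 0.938).

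Heyl (ENSMUSG00000032744.4, chromosome 4, 123233556 to 123249875, plus strand), a target known to follow Notch3 in vascular smooth muscle, stood at 9.03 and 12.7 CPM in cKO and at 19.8 and 9.56 CPM in WT. The WT library at 10 days was the highest and the other 3 lay close together. The log2 ratio was -1.13 (counting interval -1.34 to -0.93) at 10 days and 0.41 (0.23 to 0.58) at 5 weeks. The fitted log2 fold change of -0.36 had the largest SE of the 10 genes (0.446, adjusted p = 0.810), and without WT at 10 days it was 0.18.

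Levels per kilobase set the 10 genes in order, averaged over the 4 libraries. Hes1 was first with 59.8 CPM per kilobase and Notch3 second with 30.9, each above all genes below it in every library. Next came Jag1 (15.5), Notch2 (12.3), Dll1 (12.2), Notch1 (11.2) and Jag2 (7.67), whose ranges over the libraries overlapped each neighbour's. The range of Hey1 (4.35) overlapped that of Jag2 and that of Heyl (2.50), and Notch4 (0.826) was last and apart. With the longest transcript in place of all exons, Notch1 stood at 16.8, above Jag1 at 16.1, so the order among the middle genes depends on the length used.

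The time comparison, 5 weeks over 10 days with genotype held constant, called 0 of the 10 genes in edgeR's quasi-likelihood test, where 0.0634% of all genes were called. DESeq2 and limma-voom also called 0 of the 10, where they called 1.01% and 0.206% of all genes. At an unadjusted p under 0.05 stood the 3 ligands, where 5.35% of all genes did so (3.09% higher and 2.27% lower at 5 weeks). By that measure limma-voom had 1 of the 10 (Jag2) and 6.4% of all genes, and DESeq2 0 of the 10 and 4.96% of all genes. Higher at 5 weeks in both genotypes were 4 of the 10 (Notch3, Jag1, Jag2 and Hey1), where 27.4% of all genes were, and 2 were lower in both (Dll1 and Hes1), where 22.5% were. Jag2 had a log2 fold change of 0.58 (SE 0.195, adjusted p = 0.806) and Jag1 of 0.51 (SE 0.197, adjusted p = 0.898), and without 1 library the Jag2 value ran from -0.58 to 1.72 and the Jag1 value from 0.18 to 0.84. Dll1 had a log2 fold change of -0.60 (SE 0.233, adjusted p = 0.908), and without 1 library it ran from -1.22 to -0.064. The receptors and targets had log2 fold changes for time between -0.29 (Heyl) and 0.30 (Hey1).

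In WT the Jag2 level at 5 weeks was 1.55 times that at 10 days, while the summed basal markers were 4.07 times as high. In cKO these ratios were 1.44 for Jag2 and 0.977 for the basal markers. Dll1 at 5 weeks was 0.534 times its level at 10 days in cKO and 0.808 times in WT. The myoepithelial contraction markers had ratios of 1.18 in cKO and 0.588 in WT, and the squamous markers 1.32 and 4.89. In WT, Dll1 thus moved against the basal and squamous sums and in the direction of the contraction sum. In cKO, Dll1 moved against the contraction and squamous sums, while the basal sum stayed near its level at 10 days.

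Beyond the 10 genes, 43 other genes of the pathway were taken by role, and 41 of them passed the filter on low counts. None was called for genotype in edgeR's quasi-likelihood test, 4 stood at an unadjusted p under 0.05 (2 lower and 2 higher in cKO, where 5.8% of all genes did so in each direction), DESeq2 called 1 (Dlk2) and limma-voom 0, where these tools called 2.71% and 0.153% of all genes. The middle of the 41 log2 fold changes lay at 0.03 (quartiles -0.14 and 0.30), and that of all tested genes at -0.01 (quartiles -0.29 and 0.32). Lower in cKO at both time points were 9 of the 41, where 30.5% of all genes were, and 15 were higher at both, where 29.7% of all genes were.

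The lower pair was Dlk2 and Nrarp. Dlk2, which encodes a Delta-like protein without the receptor-binding domain of the classical ligands, stood at 1.01 and 1.53 CPM in cKO and at 4.67 and 8.84 CPM in WT. The fitted log2 difference was -2.37 (SE 0.378, adjusted p = 0.187 in edgeR's quasi-likelihood test). Both cKO values lay below both WT values, as for Jag2 and for 23.3% of all tested genes. Nrarp, a feedback inhibitor that Notch itself induces, stood at 6.17 and 8.72 CPM in cKO and at 20.5 and 12.4 CPM in WT. The fitted log2 difference was -1.11 (SE 0.384, adjusted p = 0.388 in edgeR's quasi-likelihood test). Like Heyl, Nrarp was highest in WT at 10 days.

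The higher pair was Rbpj and Neurl3. Rbpj, the DNA-binding partner of all Notch receptors, stood at 99.1 and 134 CPM in cKO and at 66.8 and 78.8 CPM in WT. The fitted log2 difference was 0.67 (SE 0.193, adjusted p = 0.327 in edgeR's quasi-likelihood test). Neurl3, of the Neuralized ubiquitin ligase family, stood at 8.88 and 11.1 CPM in cKO and at 5.49 and 6.19 CPM in WT. The fitted log2 difference was 0.77 (SE 0.301, adjusted p = 0.421 in edgeR's quasi-likelihood test). For both genes the cKO values lay above the WT values, as for 22.6% of all tested genes.

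Among genes for receptor cleavage, all 10 had log2 fold changes between -0.30 and 0.45, and the most abundant, the ADAM protease gene Adam10, stood at 223 and 295 CPM in cKO and 164 and 215 CPM in WT, with an adjusted p of 0.498 in edgeR's quasi-likelihood test. All 8 genes for inhibitors and receptor turnover lay between -0.33 and 0.46, with Dtx3, a Deltex family gene, at 304 and 302 CPM in cKO and 313 and 299.8 CPM in WT.

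In 4 further roles, the most abundant genes were as follows. Pofut1, whose enzyme adds O-fucose to the receptors, stood at 58.1 and 67.8 CPM in cKO and 50.8 and 59.6 CPM in WT. Mib1, a ubiquitin ligase that drives ligand endocytosis, stood at 75.9 and 97.6 CPM in cKO and 85.1 and 73.6 CPM in WT. Dlk1, a non-canonical ligand gene, stood at 5.19 and 10.1 CPM in cKO and 2.99 and 6.65 CPM in WT, and Hes6 at 14.1 and 10.1 CPM in cKO and 11.0 and 15.7 CPM in WT. None of these 4 had an adjusted p under the threshold in edgeR's quasi-likelihood test. Dll3 and Hes5 held at most 6 and 3 counts in any library and were not tested.

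**Figure D4:**
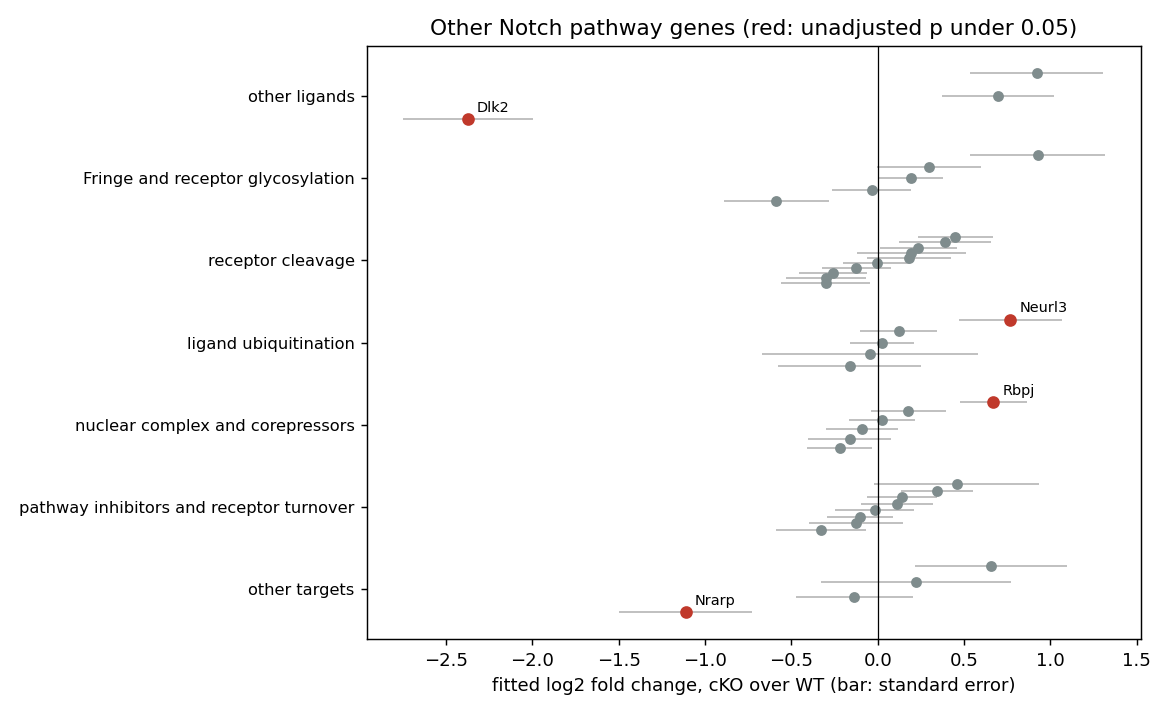
Fitted log2 fold change of cKO over WT for the 41 tested genes of the wider pathway list, by role, with standard errors as bars and red points for an unadjusted p under 0.05. Dlk2 (-2.37) and Nrarp (-1.11) lie to the left, Rbpj (0.67) and Neurl3 (0.77) to the right, and the 10 cleavage genes lie between -0.30 and 0.45.

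The genes most like Jag2 over the 4 libraries were found by the Euclidean distance between centred log2 CPM among 13609 genes. They were Ucn2 (distance 0.0903), Pard6g (0.157), Grip1 (0.169), Artn (0.185) and Dctd (0.288). Their log2 fold changes lay between -2.02 and -1.64, near that of Jag2 because the genes were picked for a like profile. Artn passed the filter on level by its mean only, at 0.472 and 0.736 CPM in cKO and 1.86 and 3.08 CPM in WT. Pard6g, which encodes a cell polarity protein, stood at 9.82 and 13.3 CPM in cKO and 28.3 and 44.4 CPM in WT. Around Notch3, whose profile was flat, the nearest were Cnpy3 (0.0253), Neil1 (0.0255), Setd3 (0.0264), Slc25a12 (0.0295) and Timmdc1 (0.0296). Distances over 4 libraries describe likeness only.

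Counts were also read for annotated genes that overlap the 10. The highest count of any of them was 65, for a transcript opposite Notch1, against at least 4326 counts for Notch1 itself. Strand use in counting was not given in the sources used here, and opposite-strand reads counted into a member cannot be told apart from its own.

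**Figure D5:**
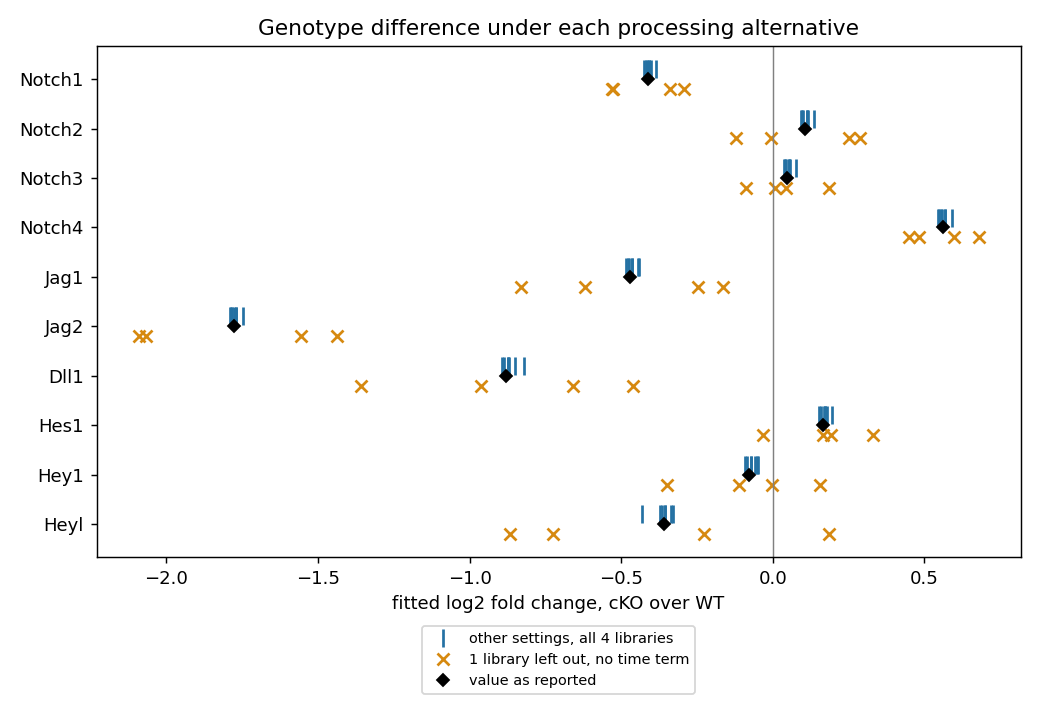
Fitted log2 fold change of cKO over WT for each gene as reported (diamonds), under 7 other settings with all 4 libraries (bars) and with 1 library left out and no time term (crosses). Jag2 stays between -2.09 and -1.44 throughout, while Notch2, Notch3, Hes1, Hey1 and Heyl cross 0 when a library is left out.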

How the data were processed

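Total RNA of sorted mammary cells was sequenced in 4 libraries, grouped by the genotype label (2 cKO and 2 WT), with the time label as a second term. The authors deposited gene-level estimated counts as whole numbers for 54393 identifiers, a column for each library and 0 further sample columns. Per the submitters' processing notes Salmon and GRCm38 were used, in roles and a version not stated there, and the annotation was not given in the sources used here. Salmon shares reads among similar transcripts by a model, so counts of paralogs depend on it. Symbols, positions and exon lengths came from GENCODE M21. Where a symbol recurred (105 cases) its highest-count identifier was kept. Libraries of the same genotype were not copies of each other (chi-square per degree of freedom 102 for cKO and 204 for WT).

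Genes were filtered with filterByExpr (minimum count 10), leaving 18917 genes with 99.9% of counts. edgeR 4.0.16 (R 4.3.3) fitted a robust quasi-likelihood model with TMM scaling and terms for time and genotype, with 1 residual degree of freedom. F tests were adjusted by Benjamini-Hochberg over all tested genes (threshold 0.05). The SE was computed as the size of the log2 fold change over the square root of F. Log2 ratios within a time point used a prior count of 2. Their 95% intervals are exact binomial intervals of the counts and, like all counting intervals here, cover counting error only. Alternatives were DESeq2 1.42.0, limma-voom (limma 3.58.1), other scaling, no filter, no time term and leaving out each library. The fit was tested on simulated data. The time term is the only pairing of libraries, since no other replicate numbers are shared. The 10 genes, the 43 other pathway genes, the marker lists and the rule for named genes were chosen with earlier results of these data known. Named were all 10 genes and Trp63. From the 43 were named those at an unadjusted p under 0.05 and the most abundant of each role. The most abundant gene of 1 role is not reported here. Also named were the 5 genes nearest to the members with the largest and the smallest genotype difference. These came from genes with a mean of at least 1 CPM. Dll4, Dll3 and Hes5 were named after their values were seen.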

Additional observations from a re-analysis of the deposited data

Results flagged for a closer look

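For 3 genes the cKO library lay on one side of the WT library at 10 days and on the other side at 5 weeks, beyond counting error at both. With 1 library per genotype and time point, the difference between time points was not tested. Opposite directions by sign alone, without the counting intervals, were found for 39.8% of all tested genes. The share of all genes with opposite directions beyond counting error is not given here. The log2 ratio of cKO over WT at 5 weeks minus that at 10 days was 1.54 for Heyl, 0.66 for Notch2 and -0.24 for Notch3. For Heyl the WT library at 10 days stood at 19.8 CPM, and the other 3 libraries between 9.03 and 12.7 CPM.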

How the results depend on the processing

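The number of genes called for genotype was 11 as reported. It was 5 with DESeq2's size factors, 3 with upper-quartile factors, 1235 with no filter on low counts, 512 in DESeq2, 29 in limma-voom, and 0 without the time term (no replicate block), where 2182 genes had an unadjusted p under 0.05. Without 1 library it ran from 0 (without either cKO library) to 61 (without WT at 10 days). Of the 10 genes, 2 (Jag2 and Dll1) were called with no filter, 1 (Jag2) in DESeq2 and 0 in the other 9 alternatives. Of the wider list 2 (Dlk2 and Nrarp) were called with no filter and 1 (Dlk2) in DESeq2. The number called for time was 12 as reported, 638 with no filter, 192 in DESeq2, 39 in limma-voom, 1 without the genotype term, and 0 to 19 without 1 library. The cause of these differences was not tested.

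Notch1, Notch4, Jag1, Jag2 and Dll1 kept the sign of their genotype difference in all 11 alternatives. For the other 5 genes the sign turned without 1 library, with log2 fold changes from -0.12 to 0.29 for Notch2, -0.088 to 0.19 for Notch3, -0.032 to 0.33 for Hes1, -0.35 to 0.16 for Hey1 and -0.87 to 0.18 for Heyl. For time, the sign turned without 1 library for Notch1 (-0.30 to 0.31), Notch2 (-0.17 to 0.29), Notch4 (-0.30 to 0.40), Jag2 (-0.58 to 1.72) and Heyl (-0.87 to 0.31). It also turned for Notch1 with upper-quartile factors (-0.0057) and with no scaling (-0.036), and for Notch4 with no scaling (-0.00053). With 3 libraries the other factor was left out of the fit, so by construction time enters the genotype values and genotype the time values, and the lone library of a group is assumed to vary like the others. Notch4, with 171 to 446 counts, had the widest counting intervals of the 10 genes.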
